A study of Homo sapiens with 8 samples.

Results

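EIF4G1, EIF4G2 and EIF4G3 encode the eIF4G family of translation initiation factors. These 3 genes were chosen from the RBM45 CLIP peak lists of wild-type (WT) HEK293T cells, and their members are the listed peaks that touch the gene on the gene's own strand. In hg19 coordinates the intervals were chr1:21132976-21503377 on the minus strand for EIF4G3 (370.402 kb), chr3:184032283-184053146 on the plus strand for EIF4G1 (20.864 kb) and chr11:10818593-10830582 on the minus strand for EIF4G2 (11.99 kb). Together they held 143 of 210878 peaks in replicate 1, 113 of 65587 peaks in replicate 2 and 38 of the 13758 pairs in the authors' list of peaks shared by both replicates. Because these lists chose the genes, the numbers of peaks, their strengths and their overlap are given as a description, with no test.

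The study mapped where RBM45, an RNA-binding protein with RNA recognition motifs, contacts RNA, with and without METTL3, the methyltransferase that places most m6A on messenger RNA. All cells were HEK293T, a transformed human embryonic kidney line, transduced with a lentivirus for FLAG-HA-tagged human RBM45 and irradiated at 254 nm with 300 mJ/cm2. The 8 samples were CLIP libraries (cross-linking and immunoprecipitation with an antibody to the HA tag) and size-matched inputs without antibody, each from METTL3 knockout and from WT cells, with 2 replicates per group. Only the 2 WT CLIP replicates are described here, and neither METTL3 knockout cells nor the inputs were analysed. How deeply each library was sequenced is unknown, and the labels do not say whether replicates were separate cultures. The tagged protein was added to cells that also carry their own RBM45 gene, and every group carries the tag.

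eIF4G proteins are the scaffolds on which cap-dependent translation starts. eIF4G1 binds the cap-binding protein eIF4E, the RNA helicase eIF4A, the eIF3 complex and poly(A)-binding protein, and so brings the small ribosomal subunit to the capped end of a messenger RNA. eIF4G3, also called eIF4GII, is its close relative with the same binding partners. eIF4G2, also called DAP5, p97 or NAT1, lacks the part that binds eIF4E and acts in initiation that does not use that route. The values below concern listed RBM45 CLIP peaks in these genes, not the proteins.

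The genes differ in build as well as in length. In GENCODE release 29 on GRCh38, annotated exons together made up 2.59% of the EIF4G3 gene, 39.6% of EIF4G1 and 71.8% of EIF4G2. EIF4G3 is therefore nearly all intron, while exons fill most of EIF4G2. That annotation is in another build than the peaks, so no peak was assigned to an exon or an intron, and no sequence is printed at the peaks. By the same annotation EIF4G3 lies between HP1BP3 and ECE1, both on its strand, and holds MIR1256 and the pseudogenes RPS15AP6 and AL627311.1 on its strand. EIF4G1 holds the small nucleolar RNA gene SNORD66. EIF4G2 holds SNORD97 and overlaps CTR9, which is on the opposite strand.

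EIF4G3 carried nearly all of the peaks. It had 126 peaks in replicate 1 and 102 in replicate 2, which covered 1.58% and 1.16% of the interval. EIF4G1 had 15 peaks in replicate 1 and 10 in replicate 2, covering 4.77% and 1.95% of its interval. EIF4G2 had 2 peaks in replicate 1 and 1 in replicate 2. Read per length the order changed. EIF4G1 had 0.719 and 0.479 peaks per kb in replicates 1 and 2, EIF4G3 had 0.340 and 0.275, and EIF4G2 had 0.167 and 0.0834. The means were 0.599 ± 0.169, 0.308 ± 0.0458 and 0.125 ± 0.0590 peaks per kb (SD, n = 2 each), and the values of neighbouring genes in this order did not overlap. How much RNA of each gene the cells held was not measured in the values used here, so a higher peak density cannot be told apart from more RNA.

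Replicate 2 gave these genes a larger share of its list. Over the whole lists replicate 1 was 3.22 times as long as replicate 2, but in EIF4G3 it held 1.24 times as many peaks, in EIF4G1 1.5 times and in EIF4G2 2.00 times. EIF4G3 took up 0.0598% of the replicate 1 list and 0.156% of the replicate 2 list. The replicate 1 list was then reduced to its strongest peaks, as many as replicate 2 lists. EIF4G3 kept 94 peaks, EIF4G1 10 and EIF4G2 2, against 102, 10 and 1 in replicate 2.

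Each single flank of a gene's own length held fewer peaks than the gene. The neighbouring 370.402 kb on the 5′ side of EIF4G3 held 82 same-strand peaks in replicate 1 and 23 in replicate 2, and the stretch on its 3′ side held 65 and 17. EIF4G1 had 1 peak in the flank of its own length on the 5′ side and 4 on the 3′ side in replicate 1, and 0 in both in replicate 2. The EIF4G2 flanks of 11.99 kb held 0 peaks in either list. At the edges, the outermost EIF4G1 peaks inside lay 1067 bases (replicate 1) and 2200 bases (replicate 2) from the 5′ end, and the nearest peaks outside were 7558 and 81555 bases beyond it. For EIF4G3 the nearest outside peaks on the 5′ side were 48463 and 73935 bases away, and for EIF4G2 48874 and 48001 bases away. On the 3′ side the nearest outside peaks were 5253 and 28026 bases away for EIF4G1 and 23893 and 30908 for EIF4G3. For EIF4G2 they were 111130 and 145256 bases away. No peak lay on a border. In neither list did any of the 3 intervals hold a peak on the opposite strand (0 in each). MACS2, the peak caller that the peak names carry, does not itself give peaks a strand. No label or header says how the strand was set or whether peaks outside genes were kept. The 0 counts on the opposite strand and in flanks therefore cannot be told apart from an effect of such steps, which was not tested.

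**Figure D1:**
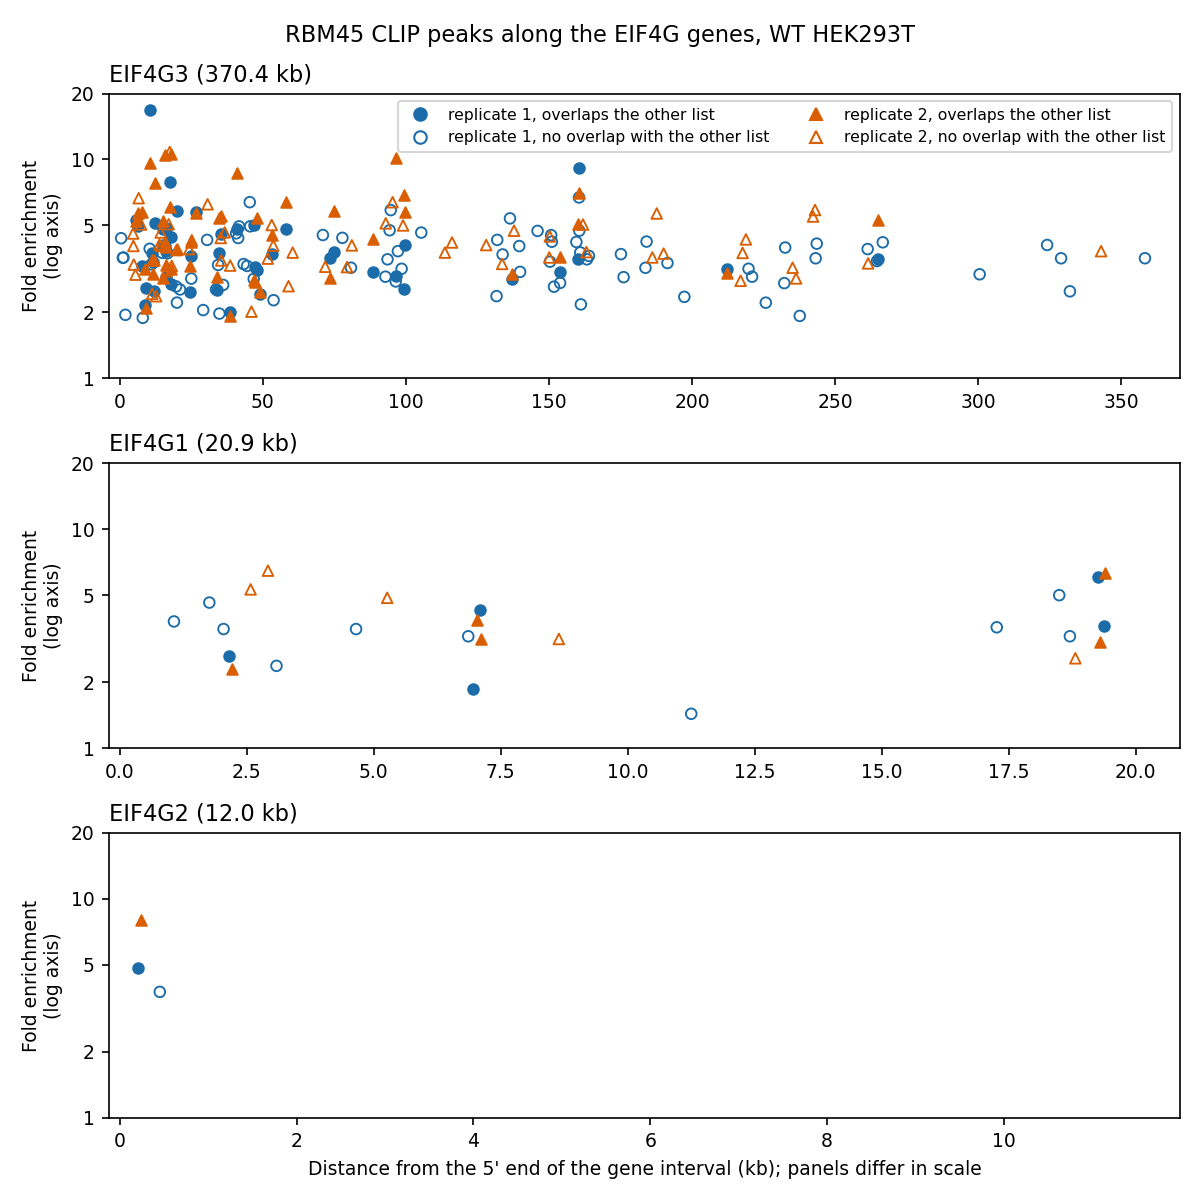
RBM45 CLIP peaks along EIF4G3 (top), EIF4G1 (middle) and EIF4G2 (bottom), placed by distance from the 5′ end in kb and by the authors' fold enrichment on a log axis; circles are replicate 1 and triangles replicate 2, and filled marks overlap a peak of the other list. EIF4G3 peaks crowd toward the 5′ end, and the nearest base of every EIF4G2 peak is within 0.453 kb of that gene's 5′ end.

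Along EIF4G3, the peaks of both lists were concentrated toward the 5′ end. The first 60 kb, 16.2% of the length, held 62 of 126 replicate 1 peaks (49.2%) and 62 of 102 replicate 2 peaks (60.8%). The first 100 kb, 27.0% of the length, held 78 and 75 peaks. Density was 2.00 and 2.40 peaks per kb between 10 and 20 kb, and 0.106 and 0.0646 per kb beyond 200 kb. Over the 38 bins of 10 kb, the counts of the 2 lists had a Spearman correlation of 0.800 and a Pearson correlation of 0.892. This is a description over bins of 1 gene, which share that gene's RNA and the libraries. Of the 38 bins, 8 were empty in both lists and 12 were empty in 1 list. The longest stretch without a peak ran from 266.659 to 300.477 kb in replicate 1 and from 264.980 to 342.915 kb in replicate 2.

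On a fixed hg19 grid of 10-kb windows per strand, the fullest EIF4G3 window was chr1:21480001-21490000, with 15 peaks in replicate 1 and 18 in replicate 2. In replicate 2 it ranked 11 (tied) among 32388 windows with at least 1 peak, and in replicate 1 it ranked 523 among 76348. The median such window held 2 peaks in replicate 1 and 1 in replicate 2. The fullest EIF4G1 window, chr3:184030001-184040000, held 9 and 6 peaks and ranked 2633 and 1135. The EIF4G2 window, chr11:10830001-10840000, held 2 and 1 peaks, equal to the medians, and ranked 27050 and 13767 (both tied).

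**Figure D2:**
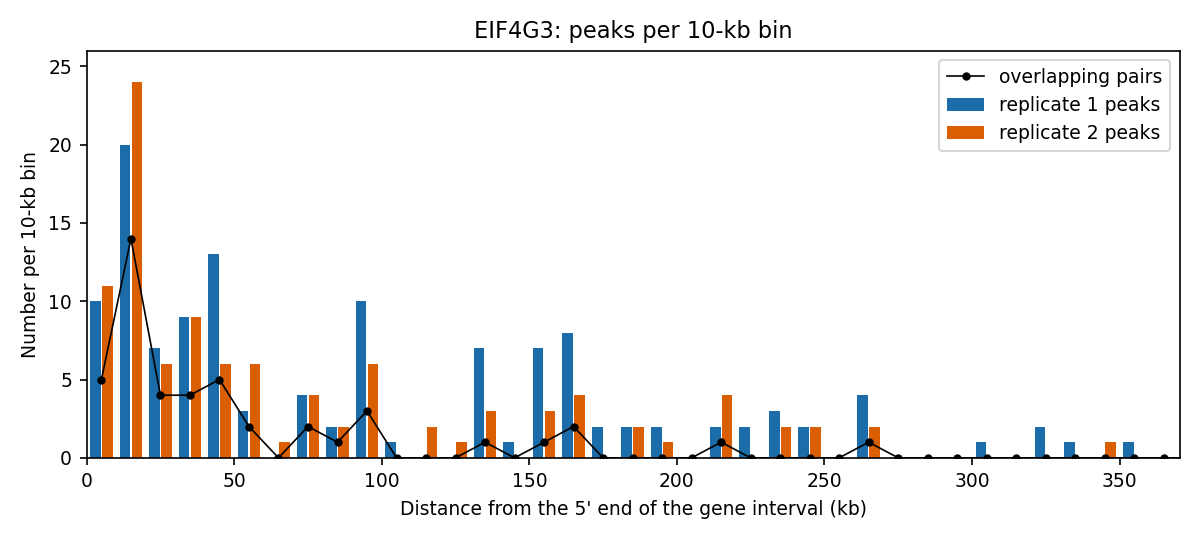
Number of replicate 1 peaks (blue bars), replicate 2 peaks (orange bars) and overlapping pairs (black line) in each 10-kb bin from the 5′ end of EIF4G3. The second bin is the fullest, with 20 and 24 peaks and 14 overlapping pairs, and bins beyond 270 kb hold at most 2 peaks of either list.

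The very start of EIF4G3 differed between the lists. Replicate 1 had 4 peaks between 473 and 1967 bases from the 5′ end, with folds of 4.37, 3.55, 3.56 and 1.95. The first replicate 2 peak lay 4667 bases in, so none of these 4 had a partner. The first position found in both was at 5800 bases, chr1:21497548-21497577, with folds of 5.26 and 5.22.

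A larger share of EIF4G3 peaks than of whole-list peaks recurred between the replicates. In replicate 2, 46 of 102 EIF4G3 peaks (45.1%, 95% exact binomial interval 35.2 to 55.3) shared at least 1 base with a replicate 1 peak on the same strand, where the whole list gave 28.8%. In replicate 1, 46 of 126 did (36.5%, interval 28.1 to 45.6), where the whole list gave 8.88%. The 2 replicate 1 shares are not on an equal footing. The whole replicate 1 list is 3.22 times as long as replicate 2, which limits its share, against 1.24 times in EIF4G3. EIF4G1 had 5 of 10 (50%, 18.7 to 81.3) in replicate 2 and 5 of 15 (33.3%, 11.8 to 61.6) in replicate 1. For EIF4G2 it was 1 of 1 and 1 of 2. These intervals reflect counting error alone and take each peak as independent, which neighbours in 1 gene are not. They were not used to set a gene against the whole list, since the overlap helped to choose the genes. Among the stronger 50% of each list the replicate 2 share was 46.7% in EIF4G3, 28.6% in EIF4G1 (2 of 7 peaks) and 33.1% over the whole list. EIF4G1 was then below the whole list, though on too few peaks to rank it. Of the replicate 2 peaks without a partner, 40 of 56 in EIF4G3 (71.4%) and 4 of 5 in EIF4G1 had a replicate 1 peak within 1 kb, beside 56.3% of such peaks in the whole list. Their median distance to it was 393.5 bases in EIF4G3, 318 bases in EIF4G1 and 782 bases over the whole list.

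Recurrence also followed position. Within the first 60 kb of EIF4G3, 34 of 62 replicate 2 peaks (54.8%) overlapped replicate 1, and beyond 100 kb 6 of 27 did (22.2%). In replicate 1 the shares were 54.8% and 12.5%. The near end was also where both lists were dense and where −log10 p was higher, with a median of 9.45 and 10.0 in the first 60 kb and 5.47 and 5.86 beyond 100 kb. Median folds differed less, at 3.59 and 4.03 in the first 60 kb and 3.52 and 3.77 beyond 100 kb. The part of density and −log10 p in the recurrence was not tested.

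**Figure D3:**
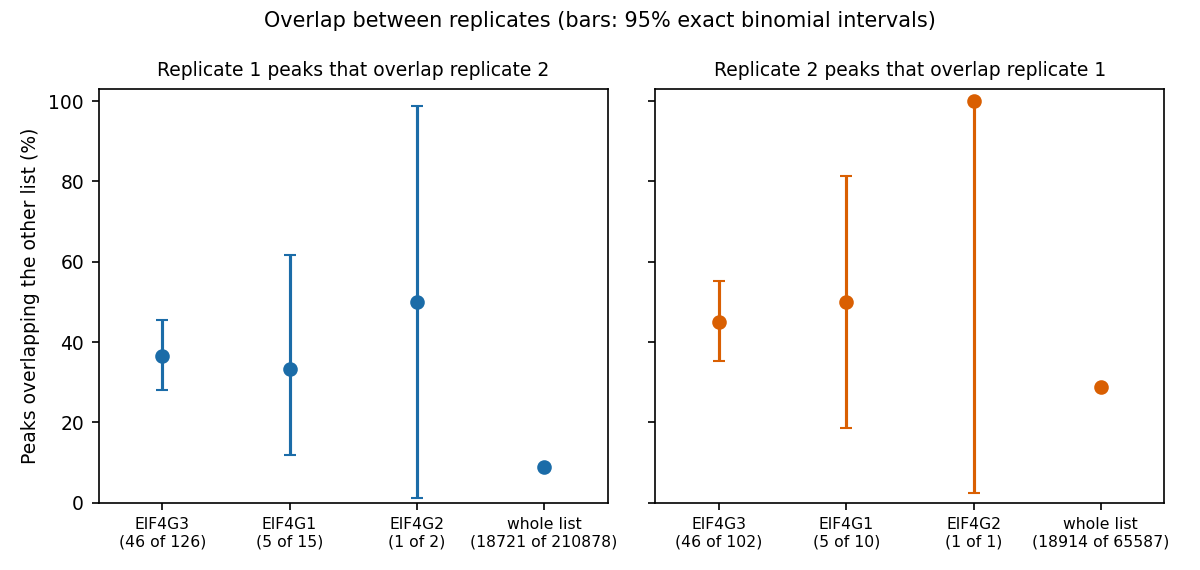
Share of peaks that overlap the other replicate by at least 1 base on the same strand, for each gene and for the whole list, in replicate 1 (left) and replicate 2 (right); bars are 95% exact binomial intervals. EIF4G3 stands at 36.5% and 45.1%, EIF4G1 at 33.3% and 50%, and the whole lists at 8.88% and 28.8%. The whole replicate 1 list is 3.22 times as long as replicate 2, which limits its share. The intervals treat peaks of 1 gene as independent and test nothing.

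The authors' list of peaks shared by both replicates named 37 pairs for EIF4G3, 1 for EIF4G1 and 0 for EIF4G2. That list takes a pair only where the overlap covers at least 50% of the replicate 1 peak, and all 13758 of its pairs were the same-strand pairs that meet this rule. Of all peaks, 6.52% in replicate 1 and 20.9% in replicate 2 belong to such a pair. In EIF4G1, 4 of the 5 overlapping pairs missed the rule, with 24.0% to 48.4% of the replicate 1 peak covered. In 3 of these the overlap covered at least 91.2% of the narrower replicate 2 peak, and in the other, chr3:184039233-184039332, it covered 45.3%. Replicate 1 peaks of the EIF4G1 pairs had a median width of 97 bases and those of replicate 2 44 bases, against 41 and 34 bases in overlapping pairs of the whole lists. The single EIF4G2 pair missed it too, with 30 shared bases, 42.3% of the replicate 1 peak and 68.2% of the replicate 2 peak. In EIF4G3, 9 of 46 overlapping pairs were left out, with 18.1% to 49.0% of the replicate 1 peak covered, and the lowest coverage among those kept was 55.2%. Over the whole lists 72.3% of overlapping pairs were in the deposited list, beside 80.4% in EIF4G3 and 20% in EIF4G1.

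**Figure D4:**
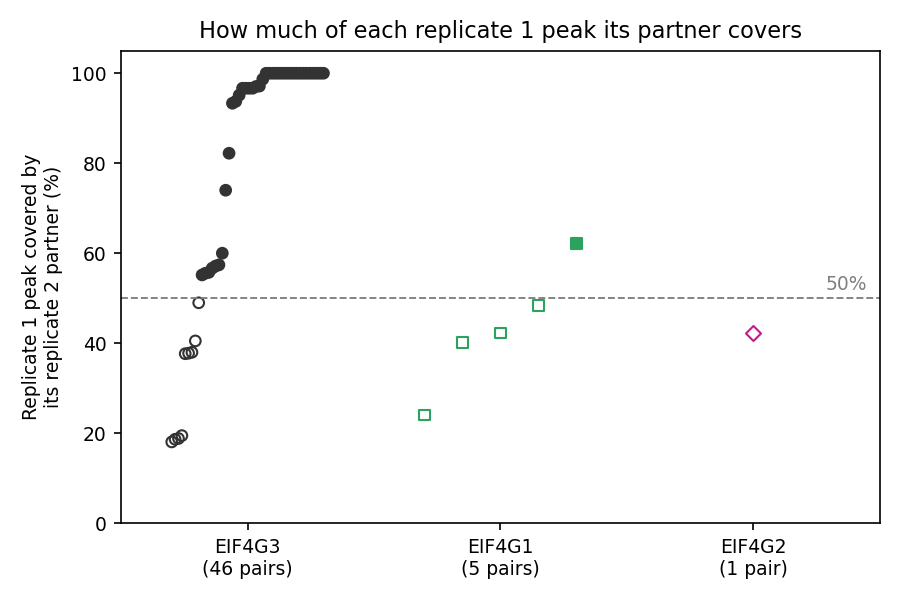
Percent of each replicate 1 peak covered by its overlapping replicate 2 peak, 1 mark per pair, sorted within each gene; filled marks are in the deposited list and the dashed line is its 50% rule. In EIF4G1 1 of 5 pairs lies above the line, the EIF4G2 pair lies below it at 42.3%, and 37 of 46 EIF4G3 pairs lie above it.

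By −log10 p in both lists and by the lower fold of a pair, EIF4G3 had the strongest site of the family. This was chr1:21492722-21492762, 10.6 kb from the 5′ end. Its fold enrichment over the caller's background was 16.8 in replicate 1 and 9.59 in replicate 2, with −log10 p of 84.9 and 67.3, as the authors' lists give them. It had the highest −log10 p of the gene in both lists, ranking 68 and 29 in the whole lists, and its lower fold ranked 66 among the 13758 deposited pairs. The replicate 2 peak began 1 base before the replicate 1 peak and ended 2 bases before it. Other EIF4G3 peaks had higher folds in replicate 2, up to 10.8.

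The next sites by the lower of their folds were spread over the 5′ 60 kb, with 1 exception far inside the gene. A pair at chr1:21342988-21343019, 160 kb from the 5′ end, had folds of 9.16 and 6.998. Pairs at chr1:21485742-21485772 (7.90 and 6.04), chr1:21476734-21476764 (5.76 and 5.68) and chr1:21491031-21491064 (5.13 and 7.78) followed, with the pair at 5800 bases described above. In each of these both folds exceeded 5. Another 4 sites, at chr1:21496839-21496868, chr1:21487350-21487389, chr1:21445398-21445432 and chr1:21462351-21462381, had folds of 4.94 and 5.68, 4.84 and 10.5, 4.80 and 6.38, and 4.79 and 8.70. These 10 pairs were taken by rank, and in the last 4 replicate 2 gave the higher fold.

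Above 5-fold in both lists were 6 of the 37 EIF4G3 pairs (16.2%), beside 13.9% of all deposited pairs. Single peaks above 5-fold numbered 11 of 126 in replicate 1 (8.73%) and 34 of 102 in replicate 2 (33.3%), where the whole lists gave 9.16% and 18.0%. The highest replicate 2 fold in the gene, 10.8 at chr1:21485896-21485935, had no overlapping replicate 1 peak. Median fold was 3.54 in replicate 1 and 4.04 in replicate 2, and the whole-list medians were 3.12 and 3.81. Median −log10 p differed more, at 6.71 and 8.43 in EIF4G3 and 3.70 and 4.24 in the whole lists.

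Paired EIF4G3 peaks were close in position and in fold, as deposited pairs in general were. The midpoints of the 37 deposited pairs were a median of 3 bases apart and at most 33.5, and 26 pairs lay within 10 bases. Over all deposited pairs the median was 4 bases, and 10254 of 13758 lay within 10 bases, so midpoints were not closer in EIF4G3 by that count. Peak starts matched to within 1 base in 18 pairs (48.6%) and ends in 21 (56.8%), beside 33.2% and 34.2% of all deposited pairs. The folds of 34 of the 37 pairs (91.9%) differed by no more than a factor of 2, beside 90.5% of all pairs. Over the 37 pairs the folds had a Spearman correlation of 0.538, and their log2 values a Pearson correlation of 0.566. They were 0.318 and 0.353 over all deposited pairs, and pairs of 1 gene share its RNA and both libraries. Replicate 2 gave the higher fold in 25 of the 37 (67.6%), beside 53.3% of all deposited pairs. The widest differences among the 37 were at chr1:21406784-21406841, with 2.94 in replicate 1 and 10.2 in replicate 2, and at chr1:21485598-21485628, with 4.42 and 10.6.

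**Figure D5:**
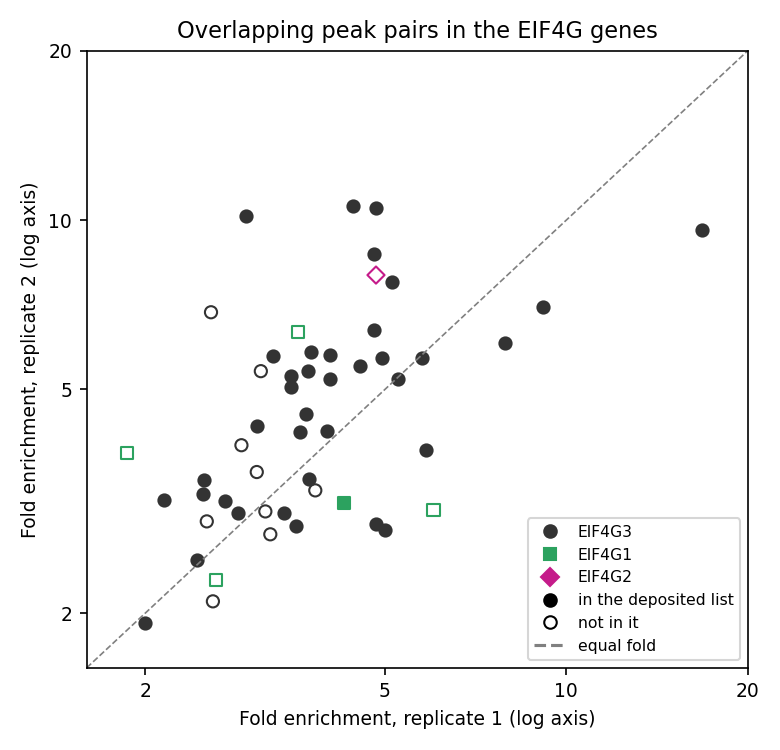
Fold enrichment of overlapping peak pairs, replicate 1 (horizontal) against replicate 2 (vertical), both on log axes; marks give the gene, filled marks are in the deposited list and the dashed line is equal fold. The EIF4G3 pair at 16.8 and 9.59 is farthest to the right, and 25 of the 37 deposited EIF4G3 pairs lie above the line.

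Some EIF4G3 pairs formed short runs. Joining deposited pairs that lay within 1 kb of each other gave 24 groups, of which 17 were single pairs and 7 held 20 pairs between them. The share of all deposited pairs in such runs is not given here, so these runs are not set against the list. The longest run had 5 pairs between 10.615 and 12.313 kb from the 5′ end, the strongest site among them. A run of 4 lay between 15.076 and 15.988 kb and a run of 3 between 17.605 and 17.895 kb. Of all listed EIF4G3 peaks, 96 of 126 (76.2%) in replicate 1 and 69 of 102 (67.6%) in replicate 2 had another peak of their list within 1 kb, beside 55.0% and 43.4% of the whole lists. The widest peaks were 149 bases in replicate 1, chr1:21456115-21456263, and 124 bases in replicate 2, chr1:21488041-21488164.

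EIF4G1, the main scaffold, had 3 groups of peaks along its 20.864 kb. Replicate 1 peaks lay from 1.067 to 4.651 kb, from 6.859 to 7.088 kb and from 17.262 to 19.379 kb, with a single peak of 1.43-fold at 11.249 kb. Replicate 2 peaks ran from 2200 to 8643 bases and from 18809 to 19384 bases. The middle of the gene was empty over 5.983 kb in replicate 1 and 10.136 kb in replicate 2. The only deposited pair, chr3:184039371-184039436, had a fold of 4.28 and 3.14 and a −log10 p of 12.2 and 12.04. It had the highest −log10 p of the gene in replicate 1. Next to it, the replicate 2 peak chr3:184039309-184039361 had the highest −log10 p of the gene in that list, 16.1. Its fold was 3.85, and the replicate 1 peak beneath it had 1.86.

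The other overlaps in EIF4G1 lay near both ends. At the 3′ side, chr3:184051543-184051606 had the highest replicate 1 fold of the gene, 6.02, over a replicate 2 peak of 3.05-fold. The adjoining chr3:184051662-184051758 had 3.59 in replicate 1 and 6.32 in replicate 2, the opposite order. At the 5′ side, chr3:184034437-184034540 had 2.62 and 2.29. The highest replicate 2 fold, 6.46 at chr3:184035200-184035253, had no partner. No EIF4G1 pair exceeded 5-fold in both lists. Replicate 1 peaks in the gene were wide, with a median of 65 bases against 30 in the whole list, and the widest were 104 bases, chr3:184033350-184033453 and chr3:184034437-184034540. The replicate 2 median was 37.5 bases and the widest peak, chr3:184039396-184039450, was 55 bases.

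EIF4G2 had its few peaks at its 5′ end. In replicate 1 they lay at chr11:10830310-10830380, 202 bases from the 5′ end, with a fold of 4.83 and a −log10 p of 17.9, and at chr11:10830084-10830129, 453 bases from it, with 3.76 and 7.20. The replicate 2 peak at chr11:10830296-10830339, 243 bases from the 5′ end, had a fold of 7.99 and a −log10 p of 41.2. That peak ranked 64 of 65587 by −log10 p, and the replicate 1 peak it overlapped ranked 1388 of 210878. The rest of the gene, beyond 0.5 kb, had no peak in either list. The deposited list of shared peaks therefore shows nothing for EIF4G2, although both lists place a peak over the same 30 bases.

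Values of single peaks are coarse. Of the 143 replicate 1 peaks, 108 (75.5%) had exactly the fold and −log10 p of some other peak in their list, as did 76 of 113 in replicate 2 (67.3%). In the whole lists 97.4% and 93.5% did. The stronger EIF4G2 peak of replicate 1 and an EIF4G3 peak, chr1:21488043-21488163, carried the same 4.83-fold and −log10 p of 17.9.

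The number of rows per peak also followed position in the genes. In EIF4G3, replicate 1 repeated each peak in 2 rows up to 1.967 kb from the 5′ end, in 3 rows from 5.800 to 57.945 kb, in 4 from 70.983 to 232.530 kb and in 3 again from 237.616 kb on. Replicate 2 changed at the same places, with 3 rows up to 60.415 kb, 4 rows from 71.797 to 235.115 kb and 3 rows from 236.324 kb on. EIF4G1 peaks came in 6 rows up to 5.264 kb and in 7 or 8 rows after that, and EIF4G2 peaks in 2. Repeats were counted once throughout, and what they stand for is stated in no label or header.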

How the data were processed

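The members and the quantities were chosen with earlier results of these data known. The submitters' processing notes name the build hg19, the peak caller MACS2 (2.1.1.20160309), the aligner Novoalign (3.09.00), and also deepTools 3.2.1, HOMER 4.11.1 and bedtools 2.25.0. Each peak's name in the deposited lists carries MACS2, its own library and p 0.005, which places the calling in single libraries. No source used here says whether input served as control. The authors' lists hold, per the values in the deposited files, a score of 10 times the −log10 p, a fold enrichment (ratio over the caller's background) and an unadjusted −log10 p for each peak. These are the authors' values and were used to describe and rank peaks within a list. The p threshold is not adjusted, so weak peaks are kept. The list of pairs is kept under the first WT input and its peak names are those of the WT CLIP lists.

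Repeated rows were merged, so that a peak counts once on a strand, and starts were raised by 1 so that positions count from 1. Gene intervals were read as 1-based. Overlap meant at least 1 base on the same strand. Distances run from the interval's 5′ end to the nearest base of a peak. Shares carry 95% exact Clopper-Pearson intervals. Named peaks were the peak of highest score and the widest peak per gene and list, all pairs of EIF4G1 and EIF4G2, the 10 EIF4G3 pairs with the highest lower fold and the nearest peaks outside; others were named after their values were seen. The overlap count was tested on simulated data.

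The 8 count columns of the authors' featureCounts 1.6.3 table, and those of its summary, match no sample label and were not used, so the planned edgeR test was not run. Other initiation factor genes were not analysed here, since their hg19 intervals were not at hand. The work used matplotlib 3.10.9, scipy 1.17.1, pandas 2.3.3 and numpy 2.4.6 under Python 3.11.15.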

Additional observations from a re-analysis of the deposited data

How the results depend on the processing

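Of 63 alternative values, 13 moved beyond the tolerance, 0 reversed and 50 stayed within it. All are counts, densities or shares, which have no sign, so the 0 was fixed beforehand. The tolerance was 1.5 times for counts, 1 SD for peaks per kb and the 95% exact interval for shares, which is wide for EIF4G1 (18.7% to 81.3%) and EIF4G2. With n = 2, either replicate alone always lies within 1 SD of the mean, so those values could not move. Ignoring strand or using midpoints could not change a count either, as no peak lay on the opposite strand or on a border. The 50 therefore include values whose outcome was fixed. Counting every row of the lists gave 426 and 339 peaks for EIF4G3 in replicates 1 and 2, 100 and 66 for EIF4G1, and 4 and 2 for EIF4G2, since rows repeat. Requiring 50% of both peaks lowered the share of replicate 2 peaks that overlap replicate 1 to 32.4% in EIF4G3, 10.0% in EIF4G1 and 0% in EIF4G2. Requiring 50% of the replicate 1 peak gave 10.0% in EIF4G1 and 0% in EIF4G2, and 36.3% in EIF4G3. By the same 2 rules the whole list gave 19.6% and 20.9%. The rules chosen after seeing the data gave 39.2% in EIF4G3 and 40% in EIF4G1 (50% of the replicate 2 peak), and 43.1% and 40% (50% of the shorter peak). With replicate 1 reduced to the length of replicate 2 the share was 41.2% in EIF4G3 and 20% in EIF4G1, and 18.6% over the whole list. In the stronger 50% of each list it was 46.7%, 28.6% and 33.1%. Both EIF4G1 values, each from 2 overlapping peaks, lie within its interval although they fell by more than 1.5 times from 50%. The place of EIF4G1 against the whole list did change with the setting. It was above at 1 shared base (50% and 28.8%), with replicate 1 reduced, and at 50% of the replicate 2 or shorter peak (whole list 24.9% and 26.2%). It was below at 50% of both peaks or of the replicate 1 peak, and in the stronger 50%. EIF4G2, with 1 replicate 2 peak, stood at either 100% or 0%. Pairs with both peaks above 5-fold numbered 6 in EIF4G3 and 0 in EIF4G1. Without replicate 1 or 2, peaks per kb were 0.275 and 0.340 in EIF4G3, 0.479 and 0.719 in EIF4G1, and 0.0834 and 0.167 in EIF4G2, the same order of genes. A −log10 p of at least 3, the stronger 50% of each list, ignoring strand and placing peaks by midpoint changed no count of peaks by more than 1.5 times. With 1 list per replicate and unknown depth, an absent peak is not evidence that RBM45 does not bind there. No paired analysis was possible because no column of counts could be tied to a sample.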
